A study of Mus musculus with 15 samples.

Results

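The subject is a set of 9 mouse genes for leukocyte adhesion molecules, Selplg, Cd44, Alcam, Icam1, Icam2, Pecam1, F11r, Cd9 and Cd47, followed through sorted brain myeloid cells. They were chosen by symbol and not by a measured value, and matched 10 of the 38924 rows in the gene tables because Cd47 is listed under a pair of Ensembl identifiers. All 10 rows passed the filter on low counts that left 14967 genes for testing. The 15 RNA-seq libraries came from male wild type C57BL/6J mice killed at 12 months of age. The mice stayed on chow (CD) or were switched to a western diet (WD) when 2 months old. Cells that carried CD45 and CD11b but not CD3e were sorted from perfused brains, without the olfactory bulb and cerebellum, and were parted by their CD45 level. There were 4 libraries of CD45hi and 4 of CD45lo cells from CD-fed mice, and 3 of CD45hi and 4 of CD45lo cells from WD-fed mice. The study describes its deposited counts as given per animal, and the labels themselves carry no animal identifiers.

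A leukocyte leaves the blood in steps. Selectins on vessel wall cells catch glycoproteins such as PSGL-1, the product of Selplg, so that the cell rolls. Activated integrins then hold ICAM-1, ICAM-2 and VCAM-1, and junction molecules such as PECAM-1 and JAM-A, the product of F11r, take part in the passage between endothelial cells. CD44 binds hyaluronan, ALCAM binds CD6 and itself, CD9 is a tetraspanin that organizes other membrane proteins, and CD47 is the ligand of the inhibitory receptor SIRP alpha. Many of these molecules are also made by the leukocyte itself or by microglia, which do not enter from the blood in adult life.

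On CD as on WD, Cd44 and Alcam were the 2 members that were higher in CD45hi cells by the test used here, by 22.2 to 50.4-fold. Of all tested genes 3.39% were called higher on CD and 4.01% on WD. Selplg was at 1.89-fold higher levels in CD45lo than in CD45hi cells on CD and 1.98-fold on WD, with no overlap between libraries, yet missed a test that asked for more than 1.5-fold. F11r too was at lower levels in every CD45hi library than in every CD45lo library, and was not called. Such groups without overlap were seen for 16.5% of all tested genes on CD and 23.4% on WD. Cd47 was higher in all CD45hi libraries of WD-fed mice than in any other library, though no difference between the diets was called for any member. Between the diets in CD45hi cells, 5.77% of all tested genes had libraries that did not overlap.

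The libraries held 11951412 to 17912272 expected counts, and 3 counts, taken as the smallest measurable value, stood for 0.156 to 0.282 cpm (counts scaled to library size) after TMM scaling. This floor covers counting error only. In a principal component analysis the CD CD45hi replicate 4 (93 on the second component) and the WD CD45hi replicate 1 (-134.7) stood apart from the other 13 libraries, which lay between -4.5 and 21.5. Values without both libraries, an alternative added after seeing the data, are given beside the results they move most. Summed over 9 microglial marker genes, CD45hi libraries held 5611 to 7000 cpm and CD45lo libraries 12565 to 15650 cpm. The 10 neutrophil markers summed to 766 to 3465 cpm in CD45hi and 79.3 to 692 cpm in CD45lo libraries, and 6 classical monocyte markers to 540 to 1097 cpm and 46.6 to 159.5 cpm. All 9 microglial markers were measured in CD45hi as in CD45lo libraries. In such bulk samples fewer cells of a type and less RNA per cell cannot be told apart, and the part of these cell types in the results was not tested.

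The promoters of the called genes are shown because they let the reader compare the pair that moved most with a classical inducible adhesion gene. Each is the RefSeq window of 250 bases before the RefSeq start on GRCm38.p6, written 5′ to 3′ on the gene's own strand, with every match to a searched motif in capitals. Cd44 lies on chromosome 2 and its window is chr2:102901666-102901915 on the minus strand. The Alcam window is chr16:52453082-52453331, also on the minus strand, and the Icam1 window is chr9:21015690-21015939 on the plus strand. RefSeq and GENCODE M21 starts can differ, and the Alcam window lies inside the span that GENCODE gives the gene (52248996 to 52454074).

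Cd44: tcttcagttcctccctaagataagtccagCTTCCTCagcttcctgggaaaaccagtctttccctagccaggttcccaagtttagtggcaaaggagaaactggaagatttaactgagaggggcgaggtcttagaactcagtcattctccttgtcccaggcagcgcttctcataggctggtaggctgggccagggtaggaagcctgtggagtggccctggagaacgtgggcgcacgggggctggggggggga

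Alcam: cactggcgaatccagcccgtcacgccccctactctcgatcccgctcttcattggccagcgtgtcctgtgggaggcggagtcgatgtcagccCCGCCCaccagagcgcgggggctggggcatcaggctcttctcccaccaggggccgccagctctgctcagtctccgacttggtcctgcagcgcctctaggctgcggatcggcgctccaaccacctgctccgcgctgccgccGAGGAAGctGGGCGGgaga

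Icam1: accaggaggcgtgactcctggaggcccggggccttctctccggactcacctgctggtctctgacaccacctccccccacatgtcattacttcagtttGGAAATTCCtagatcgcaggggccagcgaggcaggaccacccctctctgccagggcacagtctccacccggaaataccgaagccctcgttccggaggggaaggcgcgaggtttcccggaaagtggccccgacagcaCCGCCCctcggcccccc

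In these windows capitals mark GAGGAAG, an ETS core with the flank that the myeloid factor PU.1 prefers (CTTCCTC where it lies on the other strand), GGGCGG, the Sp1 box (CCGCCC on the other strand), and GGAAATTCC, an NF-kB site. GAGGAAG was found in the Alcam window at -19 to -13 from the start and, on the other strand, in the Cd44 window at -221 to -215. It stands in 10.6% of the 32851 RefSeq windows of the same length. The Icam1 window held GGAAATTCC at -153 to -145, a sequence found in 0.286% of windows. It was searched because it is the form known from this gene's promoter, so its presence is no finding. GGGCGG, present in 32.7% of windows, was found in the Alcam and Icam1 windows and not in that of Cd44. Both strands were searched, as they were for TGANTCA (6.75% of windows), TATAAA (12.4%) and TGACGTCA (1.55%), none of which was in these 3 windows. Among the other members, the F11r window held the AP-1 form TGAGTCA at -109 to -103 and, on the other strand, GGGCGG at -50 to -45, and those of Cd9 and Cd47 each held GGGCGG at 2 places. The Cd47 window too lies inside the GENCODE span of its gene, and those of F11r and Cd9 overlap the first bases of theirs. A match is a description of letters and not a bound site. Selplg, Icam2 and Pecam1 had no entry.

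Selplg encodes PSGL-1, the main leukocyte ligand of P-selectin. It lies on chromosome 5 at 113818536 to 113832644 (GENCODE M21, mm10, minus strand). In CD-fed mice its level was 708, 454, 530 and 604 cpm in the 4 CD45hi libraries and 989, 1316, 1052 and 984 cpm in the 4 CD45lo libraries. In WD-fed mice it was 616, 513 and 491 cpm in CD45hi and 1136, 881, 1150 and 1110 cpm in CD45lo libraries. Every CD45hi library was below every CD45lo library, and the means were 574 ± 108 against 1085 ± 157 cpm on CD (SD, n = 4 and 4) and 540 ± 66.9 against 1069 ± 126 cpm on WD (SD, n = 3 and 4). The log2 fold change of CD45hi against CD45lo cells was -0.92 (SE 0.150) on CD and -0.98 (SE 0.165) on WD. In edgeR's glmTreat test for more than 1.5-fold, Benjamini-Hochberg adjusted p was 0.0894 on CD and 0.0539 on WD, so neither passed 0.05. Tested for any change with edgeR's quasi-likelihood test, an alternative added after seeing the data, adjusted p was 0.000642 and 0.000741. Without the pair of libraries that stand apart the WD value was -1.09 with an adjusted p of 0.0307 in the 1.5-fold test. The microglial markers listed above were lower in the same libraries, and their part in the difference was not tested.

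Cd44 encodes the hyaluronan receptor of activated and recirculating leukocytes and lies on chromosome 2 at 102811141 to 102901665. Its level in CD45hi libraries was 399, 214, 222 and 401 cpm on CD and 334, 378 and 168 cpm on WD. The CD45lo libraries held 7.82, 19.6, 12.7 and 15.6 cpm on CD and 7.54, 17.9, 6.53 and 5.61 cpm on WD. The populations were far apart in every library, and the lowest CD45hi value lay several-fold above the highest CD45lo value. The log2 fold change was 4.47 (SE 0.428) on CD, or 22.2-fold, with an edgeR adjusted p of 6.05e-06. On WD it was 4.97 (SE 0.449), or 31.3-fold, with an adjusted p of 3.26e-06. Without the 2 libraries that stand apart the values were 4.32 on CD and 4.86 on WD, and both passed the test.

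Alcam encodes an immunoglobulin superfamily molecule of endothelial cells and leukocytes, and lies on chromosome 16 at 52248996 to 52454074. CD45hi libraries held 72.5, 77.9, 128 and 88.4 cpm on CD and 73.5, 129 and 131 cpm on WD. In CD45lo cells the level was 2.47, 4.72, 0.246 and 5.33 cpm on CD and 3.34, 4.01, 1.37 and 0.0758 cpm on WD. The lowest of these was 1 count and the next 4 counts, so 2 CD45lo libraries were at or close to the floor while every CD45hi library held at least 781 counts. Between the populations it differed by a log2 fold change of 4.84 (SE 0.791) on CD, or 28.6-fold, with an edgeR adjusted p of 0.00122. On WD the change was 5.66 (SE 0.842), or 50.4-fold, with an adjusted p of 0.000489. Without the libraries that stand apart the changes were 4.86 and 5.88, both called.

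Markers of several other cell types differed between the same populations as Cd44 and Alcam. Beside the neutrophil and monocyte sums given above, 7 markers of border-associated macrophages summed to 2095 to 2222 cpm in CD45hi cells on CD and to 830 to 2877 cpm on WD, against 68.5 to 253 cpm in CD45lo cells. The 9 endothelial markers summed to 27.9 to 127 cpm in CD45hi and 11.6 to 28.0 cpm in CD45lo libraries, and the endothelial junction gene Cldn5 was at 0 to 2.48 cpm in every library. These sums overlapped slightly, and not every gene of the list differed. Kdr was at 0.655 to 15.6 cpm in CD45hi and 4.56 to 13.7 cpm in CD45lo libraries, and Tie1 at 0 to 1.32 and 0 to 1.04 cpm. Flt1, a receptor of vascular endothelial growth factor, was at 16.2 to 68.4 cpm in CD45hi and 1.29 to 12.2 cpm in CD45lo libraries. Cdh5, the cadherin of endothelial junctions, was at 0 to 4.93 cpm in all libraries but those of WD CD45hi cells, where it ran from 0 to 48.5 cpm. The part of any of these in the 2 called differences was not tested.

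**Figure D1:**
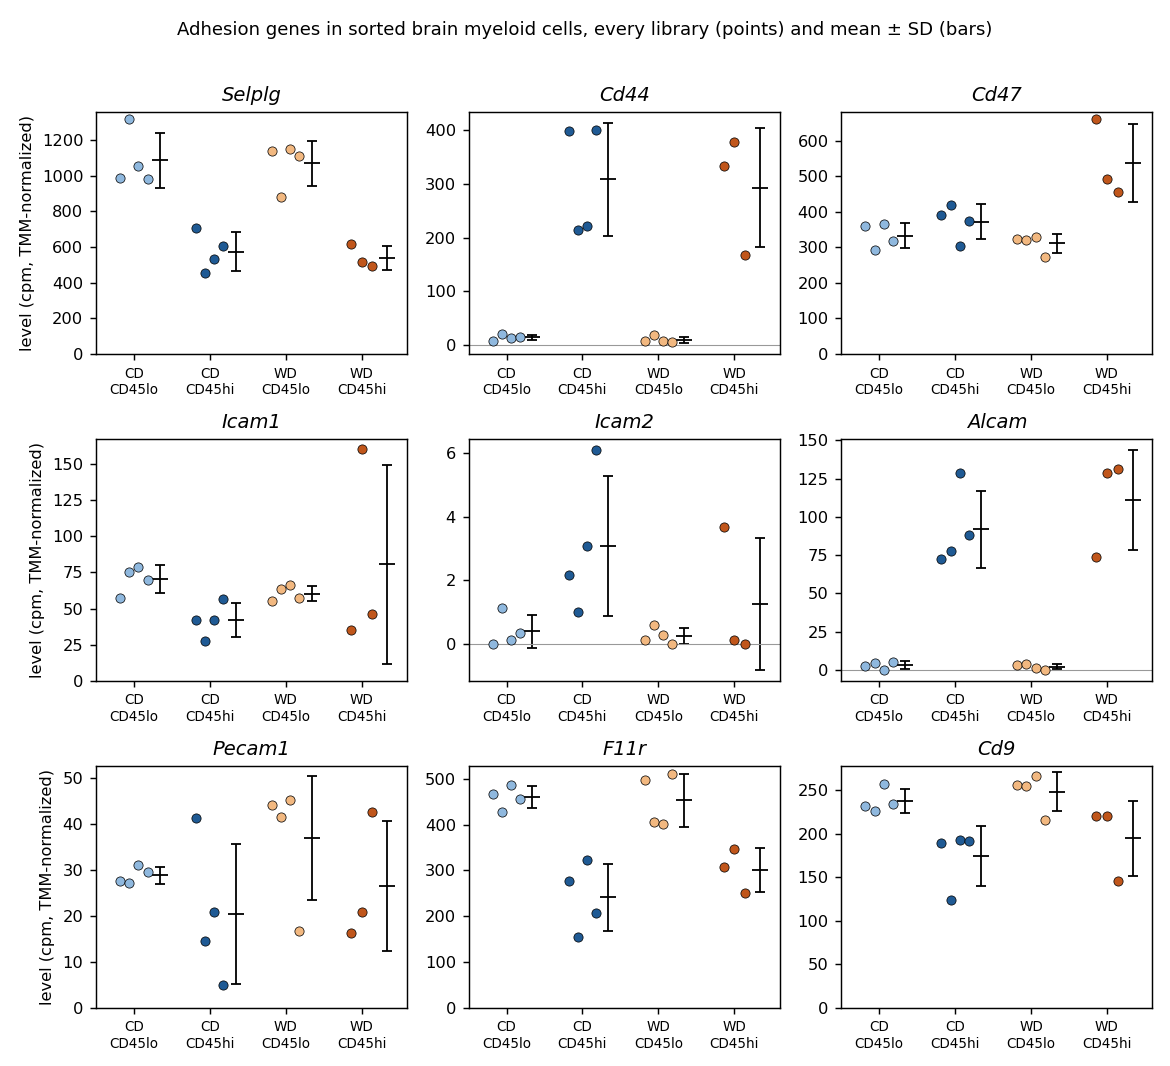
Level of the 9 genes in every library (points, y axis in TMM-normalized cpm, linear) for the 4 groups on the x axis, with the group mean ± SD beside them (n = 4, 4, 4 and 3 from left to right). Cd44 and Alcam lie at or under 19.6 cpm in all 8 CD45lo libraries and between 72.5 and 401 cpm in the 7 CD45hi libraries, Selplg and F11r lie lower in CD45hi cells on each diet, and the Icam1 mean on WD rests on 1 library at 160 cpm.

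Icam1 encodes the integrin ligand ICAM-1, which inflammatory signals induce, and lies on chromosome 9 at 21015985 to 21028817. On CD it was at 41.7, 27.5, 41.8 and 56.3 cpm in CD45hi libraries and at 57.1, 75.5, 78.7 and 70.0 cpm in CD45lo libraries. On WD the CD45hi libraries held 35.4, 160 and 45.9 cpm and the CD45lo libraries 55.0, 63.4, 66.2 and 57.0 cpm. The CD groups did not overlap, by a gap of under 1 cpm, and in WD-fed mice 2 of 3 CD45hi libraries lay below all CD45lo libraries while replicate 2 lay above them. The log2 fold change was -0.75 (SE 0.372, edgeR adjusted p = 0.644) on CD and 0.41 (SE 0.398, adjusted p = 0.833) on WD. Without WD CD45hi replicate 2 the WD value turned to -0.57, and without the libraries that stand apart it was 0.77. An antisense gene, Gm47079, overlaps Icam1, and whether counting used the strand is not given in the sources used here.

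Icam2, whose product ICAM-2 is carried by endothelial cells, platelets and several leukocytes, lies on chromosome 11 at 106377656 to 106388075 and was near the floor. It had 33, 12, 35 and 95 counts in CD45hi and 0, 22, 2 and 6 counts in CD45lo libraries on CD. In the libraries of WD-fed mice it had 39, 2 and 0 counts in CD45hi and 2, 8, 5 and 0 counts in CD45lo cells. The groups overlapped on both diets. Its fitted log2 fold change was 2.91 (SE 1.58, edgeR adjusted p = 0.496) on CD. On WD the fold was 4.91 (SE 1.63 on the log2 scale, adjusted p = 0.560), and its log2 value turned to -1.74 without WD CD45hi replicate 1, one of the libraries that stand apart. A difference of this gene was not detectable at this depth.

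Pecam1 encodes PECAM-1, or CD31, which is dense at endothelial junctions and is also carried by platelets and myeloid cells. It lies on chromosome 11 at 106654217 to 106750628, on the same chromosome as Icam2. Its level on CD was 41.2, 14.6, 20.8 and 5.02 cpm in CD45hi and 27.5, 27.1, 30.9 and 29.6 cpm in CD45lo libraries. On WD it was 16.2, 20.8 and 42.6 cpm in CD45hi and 44.1, 41.6, 45.1 and 16.7 cpm in CD45lo libraries. The CD45lo libraries on CD were close together, and the CD45hi libraries spread around them, so the groups overlapped on both diets. The log2 fold change was -0.50 (SE 0.508) on CD and -0.47 (SE 0.552) on WD, with edgeR adjusted p of 0.929 and 0.847. Without the libraries that stand apart the changes were -0.17 on CD and -0.22 on WD. The 6 platelet markers summed to 1.74 to 6.21 cpm in CD45hi and 5.19 to 10.4 cpm in CD45lo libraries. Most of this was Gp9, at 0.671 to 6.21 cpm in CD45hi and 5.19 to 9.49 cpm in CD45lo libraries. Itga2b reached 2.21 cpm and Gp1bb 1.06 cpm, Ppbp and Gp5 did not pass 0.0758 cpm, and Gp6 was at 0 in all libraries. The part of platelets in the Pecam1 values was not tested.

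F11r encodes JAM-A, a tight junction molecule of endothelium and epithelium that leukocytes and platelets also carry, and lies on chromosome 1 at 171437535 to 171464603. CD45hi libraries held 277, 155, 323 and 208 cpm on CD and 306, 346 and 250 cpm on WD. CD45lo libraries held 468, 428, 486 and 457 cpm on CD and 496, 406, 401 and 510 cpm on WD. All CD45hi libraries were below all CD45lo libraries. For F11r the log2 fold change was -0.93 (SE 0.191) on CD and -0.59 (SE 0.207) on WD, and edgeR's test for more than 1.5-fold gave adjusted p of 0.154 and 0.632. For any change the adjusted p was 0.00416 on CD and 0.0851 on WD.

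Cd9 encodes a tetraspanin abundant in microglia, platelets and many other cells, and lies on chromosome 6 at 125460266 to 125494791. It was at 190, 123, 193 and 192 cpm in CD45hi and at 232, 226, 258 and 234 cpm in CD45lo libraries on CD. On WD it was at 220, 220 and 145 cpm in CD45hi and at 256, 255, 267 and 215 cpm in CD45lo libraries. The groups were apart on CD and overlapped by 1 CD45lo library on WD. Cd9 had a log2 fold change of -0.44 (SE 0.175, edgeR adjusted p = 0.971) on CD and -0.35 (SE 0.190, adjusted p = 0.943) on WD. Gm28809 and Gm26728 overlap Cd9 on the other strand.

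Cd47 encodes the signal on healthy cells that engages SIRP alpha and restrains phagocytosis, and its main row lies on chromosome 16 at 49800533 to 49915010. On CD it was at 392, 419, 304 and 374 cpm in CD45hi and at 359, 291, 365 and 316 cpm in CD45lo libraries. On WD the CD45hi libraries held 662, 492 and 457 cpm and the CD45lo libraries 323, 321, 328 and 272 cpm. The groups overlapped on CD, and on WD each CD45hi library was above each CD45lo library. CD45hi against CD45lo gave a log2 fold change of 0.16 (SE 0.148, edgeR adjusted p = 1.0) on CD and 0.79 (SE 0.159, adjusted p = 0.231) on WD. Asked for any change, the WD difference had an adjusted p of 0.00359. Without the libraries that stand apart it was 0.61 on the log2 scale. The second row of the symbol, an identifier that GENCODE M21 does not list, held at most 3.52% of the Cd47 counts of a library and 0.471% in the library with the next highest share. Its log2 fold change was 3.17 (SE 1.31, adjusted p = 0.269) on CD and 0.66 (SE 1.31, adjusted p = 0.930) on WD.

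Counted over the 10 rows, 2 were called higher and 0 lower in CD45hi cells on WD, where 5.18% of all tested genes were called (4.01% higher and 1.17% lower). On CD the counts were again 2 and 0, where 3.98% of genes were called (3.39% higher and 0.588% lower). Groups that did not overlap were found for 5 rows on WD, 3 higher and 2 lower, and for 6 rows on CD, 2 higher and 4 lower. Over all tested genes that share was 23.4% on WD (10% higher and 13.4% lower) and 16.5% on CD (8.26% and 8.22%). By the test of any change 4 rows passed on each diet, against 9.12% of genes on WD and 8.03% on CD. These were Selplg, Cd44 and Alcam on both diets, with Cd47 on WD and F11r on CD. The median log2 fold change of the rows was 0.54 on WD and -0.14 on CD, against 0.0 and 0.04 over all tested genes.

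**Figure D2:**
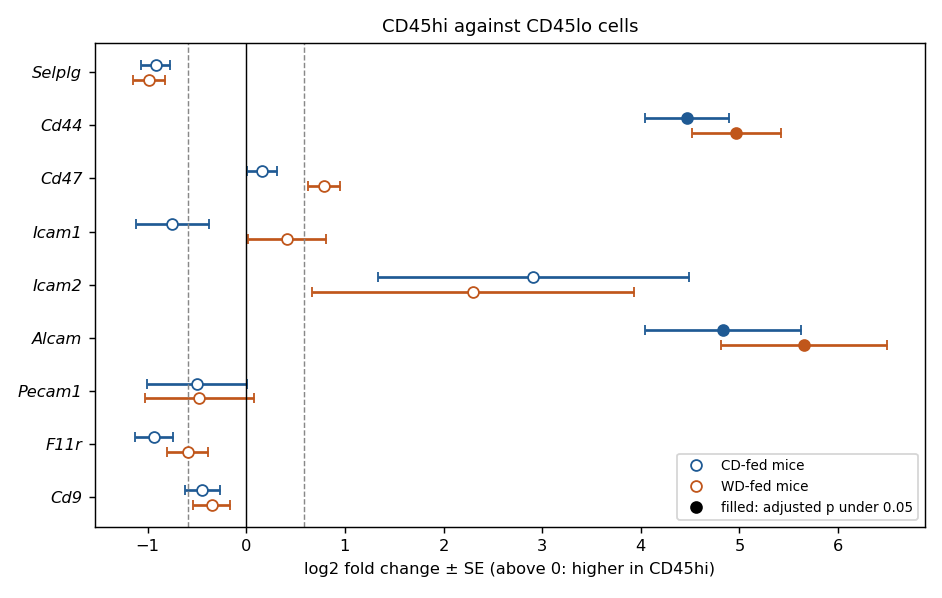
Log2 fold change of CD45hi against CD45lo cells (x axis, points, bars ± SE) for the 9 genes on the y axis, in CD-fed (blue) and WD-fed mice (orange), with filled points where the adjusted p was under 0.05 and dashed lines at 1.5-fold. Cd44 and Alcam lie between 4.47 and 5.66 and are filled, Selplg lies at -0.92 and -0.98 beyond the dashed line, and Icam2 has an SE of 1.58 and 1.63.

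The size of the smaller differences depends on the scale. From the ratio of group means, the median log2 difference of all tested genes between CD45hi and CD45lo cells was 0.04 on WD and 0.05 on CD in TMM-normalized cpm. Without TMM it was -0.28 and -0.19, and in TPM, the authors' value per transcript length, it was -0.46 and -0.36. Cd47 on CD was at 0.16 in TMM cpm, at -0.07 without TMM and at -0.37 in TPM, so its direction on CD turned with the scale. Icam1 on WD was at 0.41, 0.08 and -0.15. On both diets Cd44 and Alcam stayed between 4.23 and 5.66 and Selplg between -1.53 and -0.92 on these scales. Icam2, Pecam1, F11r and Cd9 kept their direction on both diets, and Cd47 on WD was at 0.27 in TPM.

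Levels were compared between the genes per length, in TPM. Selplg had the highest mean in all 4 groups, 840 ± 95.1 TPM in CD45lo and 323 ± 54.6 TPM in CD45hi cells on CD (SD, n = 4 each). In CD45lo cells of both diets the order was Selplg, Cd9, F11r, Cd47, Icam1, Pecam1, Cd44, Alcam and Icam2. On CD none of the first 8 overlapped with the next above it, at 481 ± 29.8 TPM for Cd9, 372 ± 25.2 for F11r, 148 ± 20.5 for Cd47 and 56.0 for Icam1. On WD the ranges of Cd9 and F11r overlapped, as did those of Pecam1 with Icam1 and Cd44, so those orders are not set. In CD45hi cells on CD, Cd44 at 179 ± 51.7 TPM moved to the third place and Alcam at 75.1 ± 50.5 TPM to the sixth. Selplg and Cd9 overlapped there, at 323 and 271 TPM, Cd44 overlapped with F11r below it, and Alcam overlapped with Cd47 above it and Icam1 below it, so these orders are not set. In CD45hi cells on WD the order was Selplg, Cd9, F11r, Cd47, Cd44, Alcam, Icam1, Pecam1 and Icam2. Only F11r and Icam2 did not overlap there with the gene just above. The length that RSEM used for Alcam ran from 1385 to 6036 bases between libraries, because it weights transcript isoforms, and that of Pecam1 from 1224 to 2970 bases, so their places in TPM are the least certain.

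**Figure D3:**
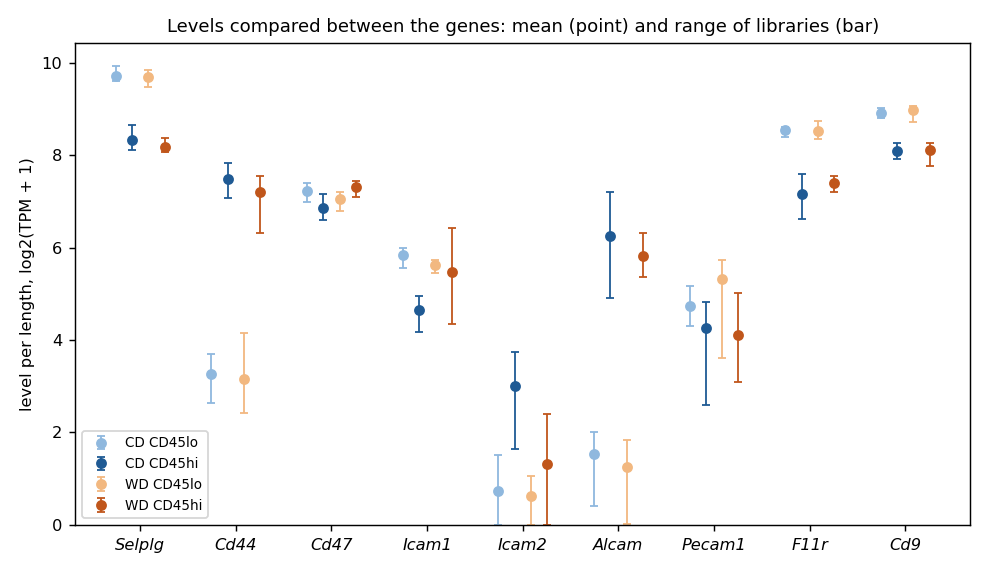
Mean level per transcript length (points, y axis log2(TPM + 1)) and the range of the libraries (bars) of the 9 genes in the 4 groups. Selplg is highest in every group, and Cd44 and Alcam lie among the lowest in CD45lo cells (8.59 and 1.91 TPM on CD) and much higher in CD45hi cells (179 and 75.1 TPM).

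Between the diets, no member was called in CD45hi cells by edgeR's quasi-likelihood test, where 0.254% of all tested genes were called. The adjusted p ran from 0.122 to 0.952, and 2 rows had an unadjusted p under 0.05. Cd47 was higher in all 3 WD than in all 4 CD libraries, by 1.44-fold (log2 0.53, SE 0.159, unadjusted p 0.00399, edgeR adjusted p = 0.122). It was the only row whose libraries did not overlap, which was seen for 5.77% of genes (2.58% with higher levels on WD). DESeq2 gave Cd47 an adjusted p of 0.0295 in a comparison where it called 6.88% of all tested genes, and without the libraries that stand apart the change was 0.35 in edgeR with an adjusted p of 0.240. Icam1 was the other row, at 0.94 (SE 0.397, unadjusted p 0.0297, edgeR adjusted p = 0.233). That value rests on WD CD45hi replicate 2, since it was -0.04 without this library and 1.47 without the libraries that stand apart.

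Selplg, Cd44 and Alcam, the members that passed the test of any change between the populations on both diets, were not called between the diets in CD45hi cells. Their log2 changes were -0.09 (SE 0.161), -0.07 (SE 0.399) and 0.28 (SE 0.717), with 95% intervals of -0.40 to 0.23, -0.86 to 0.71 and -1.13 to 1.68. The intervals of Cd44 and Alcam leave room for changes of well over 1.5-fold. F11r was at 0.32 (SE 0.203), Cd9 at 0.16 (SE 0.188), Pecam1 at 0.38 (SE 0.545) and Icam2 at -1.29 (SE 1.64), which was -4.76 without the libraries that stand apart (adjusted p = 0.226). In the same comparison the neutrophil markers summed to 1166 to 3465 cpm on CD and 766 to 1967 cpm on WD, patrolling monocyte markers to 282 to 475 and 411 to 785 cpm, and markers of other brain cells to 47.3 to 73.4 and 117 to 135 cpm. Their part in the values of Cd47 and Icam1 was not tested.

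In CD45lo cells the diets gave 0 calls among the members and 0 among all genes by edgeR (0.0% of genes called), with 123 genes at an unadjusted p under 0.05 and none of them a member. DESeq2 called 4 genes, and none of the 10 rows. The log2 changes of Selplg (-0.02, SE 0.149), F11r (-0.02, SE 0.189), Cd9 (0.07, SE 0.174) and Cd47 (-0.10, SE 0.148) were small, with 95% intervals within -0.39 to 0.41. Icam1 was at -0.22 (SE 0.370), Cd44 at -0.57 (SE 0.383), Alcam at -0.54 (SE 0.714) and Pecam1 at 0.36 (SE 0.506).

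Whether the difference between CD45hi and CD45lo cells itself changed with diet was tested as the interaction. No member was called, where 0.00668% of genes were called, and 2 rows had an unadjusted p under 0.05. Cd47 was at 0.63 (SE 0.217, unadjusted p 0.0103, edgeR adjusted p = 0.365) and Icam1 at 1.16 (SE 0.544, unadjusted p 0.0472, adjusted p = 0.484), the latter 0.18 without WD CD45hi replicate 2. Cd44 was at 0.50 (SE 0.551) and Alcam at 0.82 (SE 1.01), so the larger fold on WD than on CD was within the error for both. All of these comparisons share libraries and are not independent of each other.

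**Figure D4:**
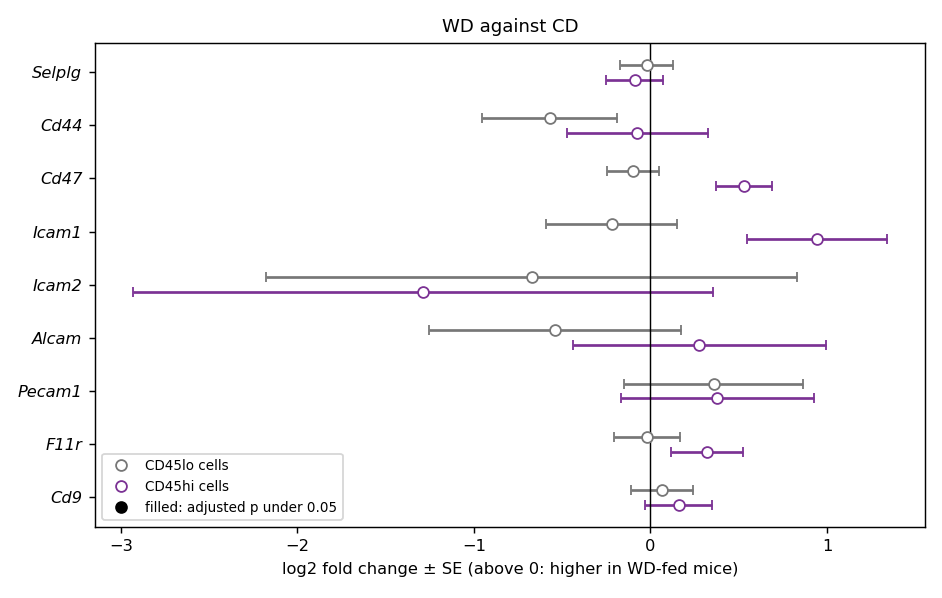
Log2 fold change of WD against CD (x axis, points, bars ± SE) for the 9 genes on the y axis, in CD45lo (grey) and CD45hi cells (purple). No point is filled, since no adjusted p was under 0.05, and Cd47 and Icam1 in CD45hi cells lie highest, at 0.53 and 0.94.

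The partners of these molecules and genes related to them were followed in 8 lists of 59 genes, of which 50 could be tested. In CD45hi against CD45lo cells 10 were called higher and 0 lower on WD, and 9 higher and 1 lower on CD. Of all tested genes 4.01% were called higher and 1.17% lower on WD, and 3.39% and 0.588% on CD. The lists were chosen with earlier results of these data known. Selp and Sele, the platelet and endothelial selectins, were too low to be tested. Vcam1, the ligand of the alpha-4 integrin, was higher by 3.85-fold on CD and 5.31-fold on WD. The CD call was lost without CD CD45hi replicate 1, CD CD45lo replicate 2 or CD CD45lo replicate 3 (adjusted p up to 0.0612), and the WD value was 3.22-fold without WD CD45hi replicate 3. Of the enzymes that build selectin ligands, 0 of 8 were called on WD, and Gcnt1, which starts the core O-glycan branch on PSGL-1, was lower on CD (235 ± 24.0 against 463 ± 47.6 cpm, log2 -0.98, edgeR adjusted p = 0.0369). This call was lost in 7 of the 15 fits that left out 1 library, with an adjusted p of up to 0.129.

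Of the 8 integrin chains tested, 3 were called higher and 0 lower on each diet, against 4.01% of all tested genes higher on WD and 3.39% on CD. Itgal, the alpha chain of the ICAM receptor LFA-1, rose from 4.21 ± 3.23 cpm in CD45lo to 174 ± 28.5 cpm in CD45hi cells on CD, and from 5.11 ± 3.37 to 264 ± 59.4 cpm on WD. Its log2 fold change was 5.36 (SE 0.559) and 5.69 (SE 0.578), with edgeR adjusted p of 1.57e-05 and 1.13e-05. Itga4, the chain that binds VCAM-1, was higher by 20.1-fold on CD and 22.7-fold on WD. Itgax, or CD11c, was higher by 6.96-fold on CD and 10.2-fold on WD. Icam1 and Icam2, which encode ligands of LFA-1, were as given above not called on either diet. Without CD CD45lo replicate 4 the CD value of Itgal was 5.98.

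Among the CD44 ligands and linkers 3 of 9 tested genes were called higher and 0 lower on each diet. The share called higher over all tested genes was 4.01% on WD and 3.39% on CD. Spp1, which encodes the CD44 ligand osteopontin, was higher by 44.8-fold on CD and 91.6-fold on WD. The CD value was 25.2-fold without CD CD45hi replicate 4, one of the libraries that stand apart, and 67.8-fold without CD CD45lo replicate 1, and it was called in both. Ezr, which encodes ezrin and ties CD44 to actin, was higher by 3.58 on CD and 3.47 on WD on the log2 scale, and Srgn, the proteoglycan serglycin, by 5.41-fold and 3.35-fold. The WD call of Ezr was lost without WD CD45hi replicate 2 or WD CD45lo replicate 4 (adjusted p = 0.0606 and 0.0550). Of the 4 genes on the CD47 list, Thbs1, which encodes thrombospondin 1, was higher by 10.5-fold and 5.03-fold, the latter 3.03-fold and no longer called without WD CD45hi replicate 3 (adjusted p = 0.0708). Sirpb1a is on this list as a gene of the SIRP family, and that its product binds CD47 is not shown here. Its level was 7.45 ± 3.33 against 0.267 ± 0.231 cpm on CD (adjusted p = 0.0506) and 11.3 ± 10.8 against 0.276 ± 0.509 cpm on WD (edgeR adjusted p = 0.0291). The WD call was lost without WD CD45hi replicate 2 or without WD CD45lo replicate 1, 3 or 4 (adjusted p 0.0712 to 0.0979), and on CD it was made in 6 of the 15 fits without 1 library. Sirpa, the receptor of CD47, was at 893 against 1435 cpm on CD and 799 against 1348 cpm on WD and was not called.

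Against 5.18% of all tested genes on WD and 3.98% on CD, junction molecules gave 1 call in 8 on WD and 0 on CD. That gene was Cd226, a lymphocyte and platelet receptor, with 13.4 ± 19.1 cpm in CD45hi cells (SD, n = 3, between 6 and 376 counts) and 0 counts in all 4 CD45lo libraries, so it was at least 66.2-fold higher against a floor of 3 counts per library. This rests on WD CD45hi replicate 1, which held 376 counts (35.4 cpm) and stands apart. Without it the level was at least 12.0-fold higher and the gene was not called (adjusted p = 0.0824), nor was it without any 1 of the 4 WD CD45lo libraries (adjusted p 0.0567 to 0.0625). Summed T and NK cell markers were 27.2, 34.6 and 140 cpm in WD CD45hi replicates 1, 2 and 3, where Cd226 had 376, 66 and 6 counts. In WD CD45lo libraries these markers summed to 0.0 to 0.131 cpm. The T cell genes Cd3e, Cd3g and Trac were at 0 in all WD CD45hi libraries, and Cd3d was at 0 to 0.268 cpm. The other genes of that sum were Gzma at 14.3 to 64.0 cpm, Klrb1c at 0.134 to 56.3, Nkg7 at 2.73 to 18.9 and Ncr1 at 0 to 1.92 cpm. The part of T and NK cells in the Cd226 values was not tested. The nearest relatives of F11r, Jam2 and Jam3, were not called, with Jam2 at 81.7 against 143 cpm on CD and 74.5 against 143 cpm on WD. Of the 9 tetraspanins and CD9 partners 0 were called on either diet, with a median log2 change of -0.43 on WD and -0.50 on CD. Cd6, the receptor of ALCAM, was too low to be tested. No partner gene was called between the diets or in the interaction.

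**Figure D5:**
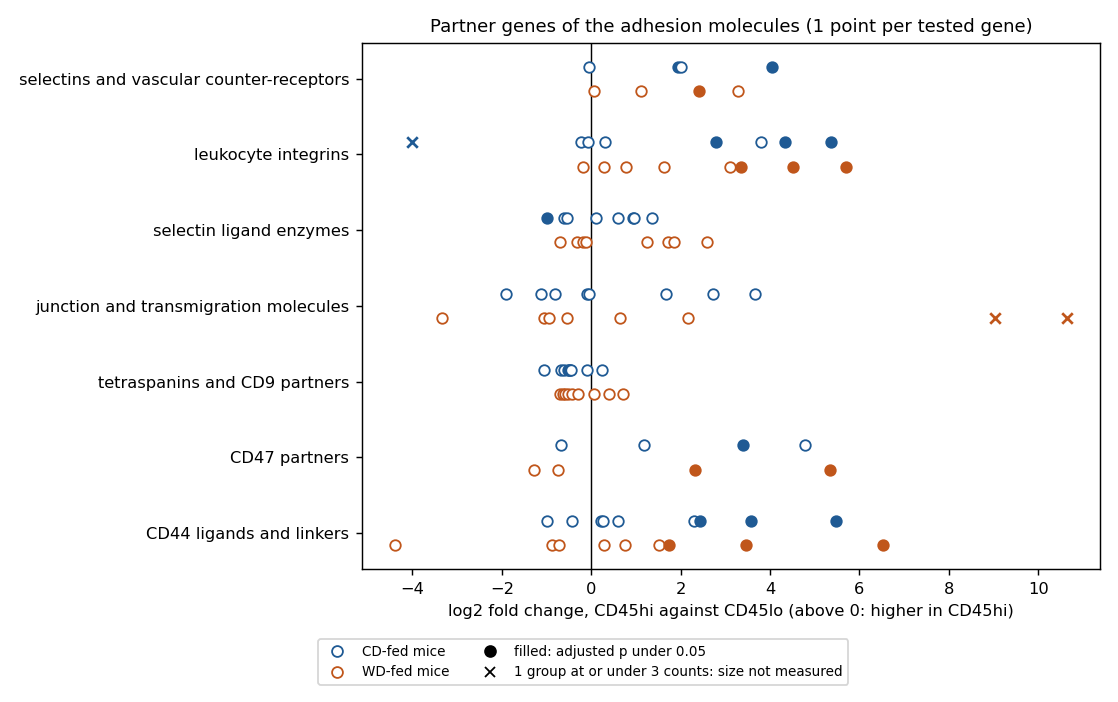
Log2 fold change of CD45hi against CD45lo cells (x axis) for every tested gene of 7 partner lists (y axis) in CD-fed (blue) and WD-fed mice (orange), filled where the adjusted p was under 0.05 and drawn as a cross, Cd226 on WD included, where all libraries of 1 group were at or under 3 counts and the size is not measured. Filled points stand to the right of 0 in all lists that hold any, except Gcnt1 on CD at -0.98, and the tetraspanin list holds none.

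The genes whose log2 cpm followed each member most closely over the 15 libraries are given as a description, since libraries of 2 populations dominate such correlations. Cd44 was followed by Ctsc (Pearson r 0.99), a lysosomal protease, and by Lyz2 (0.98), the myeloid lysozyme. Alcam was followed by Emilin2 (0.97) and Cybb (0.97), which encodes the catalytic subunit of the phagocyte oxidase. Selplg went with Slc2a5 (0.95), the fructose transporter of microglia, and Sirpa (0.95), and F11r with Kcnd1 (0.96) and the tetraspanin Cd81 (0.94). With the group means taken out these values were 0.76 and 0.61 for Cd44, 0.82 and 0.82 for Alcam, 0.57 and 0.63 for Selplg, and 0.88 and 0.77 for F11r. For the remaining members the closest genes were Zfp422 and Ncf1 (0.91 and 0.90) for Cd9, Ptbp3 and Pitpna (0.91 and 0.90) for Cd47, Sf3a1 and Nhlrc3 (0.90 and 0.90) for Icam1, Mapk7 and Ltv1 (0.89 and 0.89) for Pecam1, and Ocrl and Ctnnd2 (0.86 and 0.85) for Icam2. Among the members themselves Cd44 and Alcam had an r of 0.93, which was 0.36 with the group means taken out, and F11r and Cd9 had 0.85 and 0.65.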

How the data were processed

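RNA-seq libraries of sorted brain myeloid cells were sequenced by the authors as 75 bp paired-end, poly(A)-selected reads, trimmed at Phred 30 and quantified with RSEM 1.2.12 (in the submitters' processing notes) and Bowtie2 on mm10. The annotation release and the use of strand are not given in the sources used here. The authors deposited an expected count per gene, which is estimated, not normalized and need not be whole, and a TPM value. RSEM divides reads shared between genes, and Icam1, Pecam1, Cd9 and Cd47 had counts that were not whole (by over 0.005) in 13 to 15 of 15 libraries.

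Expected counts were rounded. Genes reaching 1 cpm in 2 or more libraries entered TMM scaling and edgeR 4.0.16 in R 4.3.3 (earlier quasi-likelihood form), fitted to all 15 libraries with 4 groups, after the paper's methods. CD45hi and CD45lo cells were compared with glmTreat at 1.5-fold, diets and the interaction with glmQLFTest, and genes with an FDR under 0.05 over all 14967 genes were called. Standard errors are the log2 fold change divided by the square root of F, and intervals are 1.96 SE to each side. TPM, the authors' unit per length, was used for levels between genes and, beside cpm, to compare the scales, and in no test. No 2 replicates were alike within sampling noise. Alternatives with DESeq2 1.42.0, limma 3.58.1, other filters and scalings, replicate blocks and left-out libraries were run, and the computation was tested on simulated counts. The members and lists were chosen with earlier results of these data known. Named genes were all members, up to 3 called genes of each list with the largest change on WD, and the 2 genes closest to each member in log2 cpm (prior count 2, at least 10 cpm on average). One gene that this rule names is not reported here. The FPKM column was not used. Coordinates are from GENCODE M21, which lists 37607 of the 38924 identifiers, and promoters from RefSeq on GRCm38.p6.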

Additional observations from a re-analysis of the deposited data

Results flagged for a closer look

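In 11 of 66 groups of 4 libraries examined (a gene in a group), 1 library lay far from the other 3 by Dixon's criterion, which chance meets in about 1 of 20 groups. Among the members, Selplg was at 881 cpm in WD CD45lo replicate 2 (others 1110 to 1150 cpm) and Cd44 at 17.9 cpm in the same library (others 5.61 to 7.54 cpm). In WD CD45lo replicate 4, Pecam1 was at 16.7 cpm (others 41.6 to 45.1 cpm) and Cd47 at 272 cpm (others 321 to 328 cpm). Cd9 was at 123 cpm in CD CD45hi replicate 2 (others 190 to 193 cpm). The Cd47 second row was at 14.3 cpm in CD CD45hi replicate 1 (others 0.515 to 1.66 cpm). Among the partner genes, CD CD45hi replicate 4, one of the libraries that stand apart, held 271 cpm of Gcnt1 (others 220 to 227 cpm), 187 cpm of Spp1 (others 35.0 to 57.0 cpm) and 541 cpm of Srgn (others 323 to 334 cpm). Cd226 was at 0.511 cpm in CD CD45lo replicate 4 (others 0 cpm), and Sirpb1a at 1.04 cpm in WD CD45lo replicate 2 (others 0 to 0.0656 cpm).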

How the results depend on the processing

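Of 1260 values of single genes under other settings, 1213 kept their direction and side of the threshold, 28 turned their direction, none of them called, and 19 passed the threshold only there. The 2 calls of Cd44 and Alcam were made on each diet under every setting run. Setting the 1.5-fold limit after the test gave 4 members called on WD and 4 on CD, where it called 8.92% and 7.76% of all genes, and so did the test of any change, added after seeing the data. Selplg in WD-fed mice was also called with 1 cpm in at least 4 libraries (adjusted p = 0.0490), with the edgeR 4 form (0.0406) and without the 2 libraries that stand apart (0.0307). DESeq2 called 1 member between diets in CD45hi cells, Cd47 (adjusted p = 0.0295), and 6.88% of all genes. Without both libraries that stand apart, also added afterwards, Icam2 turned to -1.74 (CD45hi against CD45lo, WD) and Pecam1 to -0.048 (interaction). Leaving out 1 library at a time gave 2 to 3 called members on WD, 2 to 3 on CD and 0 in the diet comparisons and the interaction. Over all tested genes these fits called 513 to 920 on WD, 412 to 705 on CD and 1 to 286 between the diets in CD45hi cells. The third call on WD was Selplg, without CD CD45hi replicate 1 or 2, CD CD45lo replicate 2, WD CD45hi replicate 1 or WD CD45lo replicate 2 (lowest adjusted p = 0.0354). On CD it was Selplg without CD CD45hi replicate 1 (0.0294) or F11r without replicate 3 (0.0351).

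With 1 library left out, these log2 fold changes changed sign. Between CD45hi and CD45lo cells on WD Icam1 ran from -0.57 to 0.77 and Icam2 ran from -1.74 to 3.11. Between diets in CD45hi cells Selplg ran from -0.19 to 0.029, Icam1 ran from -0.041 to 1.30, Pecam1 ran from -0.14 to 0.98, Cd44 ran from -0.30 to 0.21 and Cd47 second row ran from -2.25 to 0.28. In CD45lo cells Selplg ran from -0.065 to 0.079, Icam2 ran from -1.49 to 0.66, F11r ran from -0.080 to 0.036 and Cd47 second row ran from -0.025 to 1.16. In the interaction Selplg ran from -0.17 to 0.050, Icam2 ran from -4.66 to 0.20, Pecam1 ran from -0.50 to 0.62 and Cd9 ran from -0.039 to 0.27.

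A replicate block by the numbers in the titles, or by those in the file names, called 2 members on WD and 2 on CD. Of all 14967 tested genes the title block called 604 on WD and 501 on CD, and the file-name block 353 and 412. Same-numbered libraries did not deviate together over all tested genes (correlation of deviations from the group means -0.02 to 0.07). Summed neutrophil markers in CD replicates 1 to 4 ranked alike in both populations. They were 2908, 3465, 1166 and 3398 cpm in CD45hi and 291, 692, 97.9 and 464 cpm in CD45lo libraries. Dendritic sums on CD ranked alike too, and microglial, monocyte and border-associated macrophage sums did not keep the same order. On WD neutrophil sums ranked alike by the file-name numbers only, and dendritic sums by neither. These values cannot decide whether same-numbered libraries came from the same animal, since deviations of different sorted populations need not go together. The main tests used no pairing. The file-name numbers gave no block fit between diets. Depth limits Icam2, Cd226 and the second Cd47 row, which had under 100 counts in most libraries. It also limits the size of the fold changes of Alcam and Sirpb1a, which had 1 to 94 and 0 to 14 counts in CD45lo libraries.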

Other observations

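Milr1, which encodes the mast cell and myeloid inhibitory receptor Allergin-1 and starts 597 bases beyond Pecam1 on chromosome 11 (106751226 to 106768794), was higher in CD45hi cells on both diets, at a log2 fold change of 2.00 on CD and 2.23 on WD (edgeR adjusted p = 0.0112 and 0.00566). Pecam1 beside it was not called. Milr1 was chosen after its values were seen, as the one nearest neighbour of the 9 genes that was called. Of the other neighbours, Coro1c by Selplg, Cblb by Alcam, Slc1a2 by Cd44, Vwf by Cd9 and Ift57 by Cd47 were tested and not called on either diet, and Icam4, Prr29 and Tstd1 were too low to be tested.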
